A study of Rattus norvegicus with 22 samples.

Results

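Pericytes and vascular smooth muscle cells, together called mural cells, wrap the capillaries, arterioles and venules of the spinal cord, and 10 genes that mark them are described here across castration, ovary removal and sex: Cald1, Acta2, Tagln, Myh11, Mylk, Cnn1, Pdgfrb, Rgs5, Des and Tpm2. They were found by their symbols in the count table, which held all 10 of 10 among its 32883 genes. Their Ensembl identifiers there are ENSRNOG00000010233 (Cald1), ENSRNOG00000058039 (Acta2), ENSRNOG00000017628 (Tagln), ENSRNOG00000057880 (Myh11), ENSRNOG00000002215 (Mylk), ENSRNOG00000027736 (Cnn1), ENSRNOG00000018461 (Pdgfrb), ENSRNOG00000002730 (Rgs5), ENSRNOG00000019810 (Des) and ENSRNOG00000016731 (Tpm2), and the table gives no positions. Total RNA was sequenced from the ventral part of the cervical cord (C3 to C6) of Sprague-Dawley rats aged 3 to 4 months, with 1 library for each of 22 rats. The groups were 5 intact males (rats 1, 2, 3, 5 and 6), 5 males whose testes had been removed (GDX males, rats 1, 2, 4, 5 and 6), 6 intact females and 6 females whose ovaries had been removed (OVX females). Tissue of the operated rats was taken 2 weeks after surgery, all rats were perfused through the heart with saline, and the intact rats were age-matched animals with their gonads in place, for which no sham operation is described. The total count per library ran from 12371756 to 17571887 reads. Levels are given as CPM, read counts scaled to a common library size and adjusted for library composition, and since the counts are not divided by transcript length, no level is compared between genes; where a gene is said to hold the most reads of a list, this is a count of reads and not a level.

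Mural cells set the width of small vessels and help to build the barrier between blood and cord. In smooth muscle, calcium activates the kinase encoded by Mylk, which phosphorylates the myosin light chain so that smooth muscle myosin (Myh11) can pull on actin (Acta2), while caldesmon (Cald1), calponin (Cnn1) and tropomyosin (Tpm2) sit on the actin filament and tune that pull. Transgelin (Tagln) binds actin, and desmin (Des) forms the intermediate filaments that hold the contractile apparatus together. Capillary pericytes carry the receptor for platelet-derived growth factor B (Pdgfrb), which the endothelium uses to recruit them, and Rgs5, which shortens signalling through G-protein-coupled receptors. Cald1 and Mylk also have non-muscle forms made by many cell types, and Des and Tpm2 are abundant in skeletal muscle. The counts of these 4 genes in whole tissue are therefore not those of mural cells alone. Whether the counts of the other members come from mural cells alone was not tested.

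Libraries stood apart in markers of skeletal muscle, a tissue that lies around the vertebrae. The summed level of 8 such markers, of which Myh2 held the most reads, was 146.1 CPM in intact male 2, 120.1 CPM in OVX female 1 and 195.8 CPM in OVX female 4, and in the other intact males it lay between 6.49 and 11.8 CPM. In GDX male 4 the sum was 53.96 CPM, and in intact females 4 and 6 it was 53.6 and 42.7 CPM. Results of Des and Tpm2, which skeletal muscle also makes, are therefore given with and without the 3 libraries above 100 CPM, a threshold chosen after the data were seen. The libraries also fall into a long and a short class of average fragment size: every library of a GDX or OVX rat was in the short class, which also held those of intact males 2 and 5 and of females 1 and 4 among the intact, while the long class held 3 intact males and 4 intact females.

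**Figure D1:**
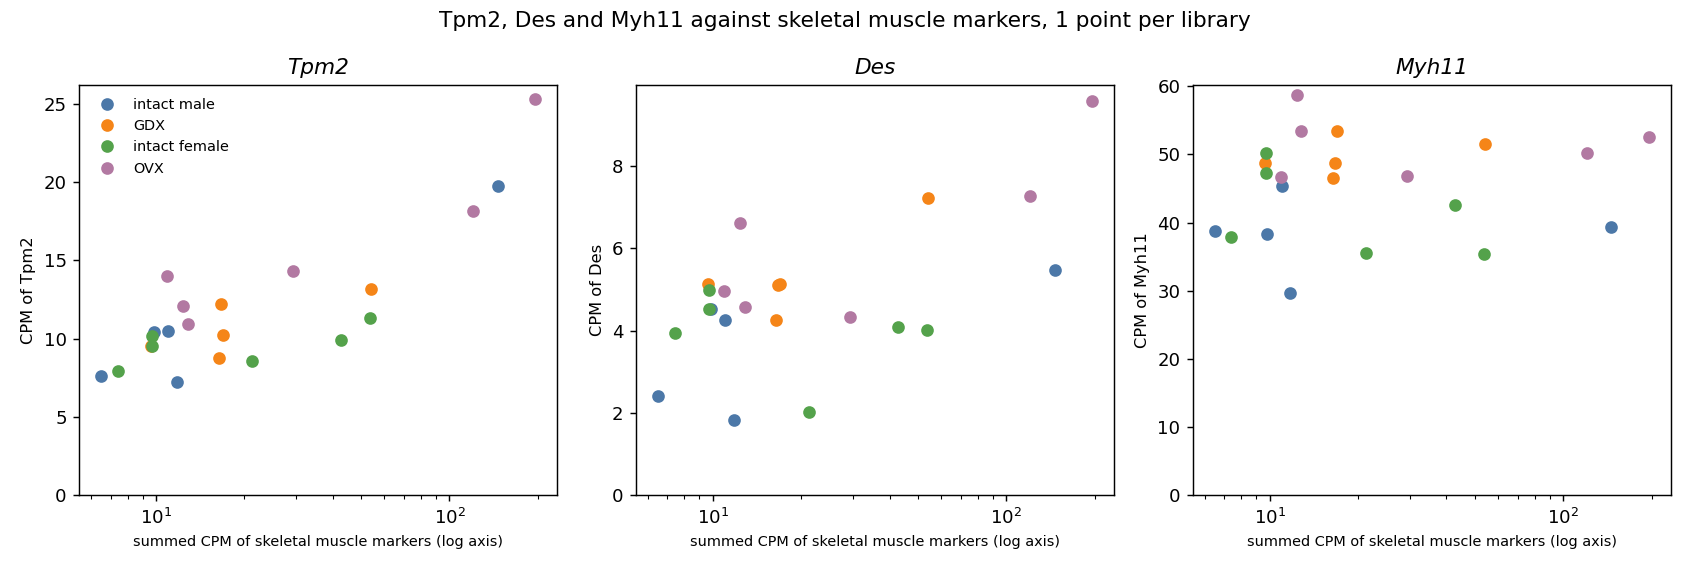
Summed level of the skeletal muscle markers in each library, in CPM, beside the levels of Tpm2 and Des. Intact male 2, OVX female 1 and OVX female 4 lie above 100 CPM, at 146.1, 120.1 and 195.8 CPM.

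Tpm2 was high in the libraries highest in these markers. Its level in the intact males was 7.23, 19.8, 10.4, 10.5 and 7.61 CPM in the order of rats given above, so that the rat highest in skeletal muscle markers, male 2, was also the highest in Tpm2, while male 1, next in those markers at 11.8 CPM, was the lowest in Tpm2. Among OVX females Tpm2 ran from 10.96 to 25.3 CPM with a median of 14.2 CPM, and the highest values were 25.3 CPM in female 4 and 18.1 CPM in female 1. The share of skeletal muscle RNA in these levels was not tested.

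The data held RNA of the contractile and of the pericyte members in every library except for Cnn1. Cnn1, whose product calponin is a late marker of contractile smooth muscle, had 0 to 5 reads in each group of intact rats and 1 to 5 reads in each group of operated rats, and it was too low to pass the filter on low counts. The other 9 passed that filter in each of the 6 comparisons. The lowest count of Acta2 in any library was 10 reads and its highest was 80, although smooth muscle actin is the usual marker of these cells. Acta2 closely resembles the other muscle actin genes in sequence, and how reads that fit several genes were counted is not stated, so its level is uncertain. Acta1, the skeletal muscle actin, had a median of 3.26 CPM in intact males, 3.32 CPM in GDX males, 3.45 CPM in intact females and 4.15 CPM in OVX females, with highest values of 18.7, 8.84, 6.96 and 28.1 CPM in that order.

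Smooth muscle genes are classically switched on by serum response factor, which binds the CArG box, and several also by TEAD factors, which bind the MCAT motif CATTCC. Promoters in RefSeq (build GRCr8, 250 bases before to 50 bases after each start) were at hand for 7 of the 10 genes, and not for Tagln, Myh11 and Pdgfrb. The exact CArG box was found in 0 of these 7, against 1.77% of 27457 genes, and a CArG-like box, with 1 C or G allowed among its inner bases, was found in Acta2, against 10.1% of genes. CATTCC, on either strand, was found in Cald1, Acta2 and Mylk, against 15.0% of genes, and TATAAA was found in the second entry of Cald1, against 15.3% of genes. The palindromes of the estrogen response element (GGTCANNNTGACC, 0.0255% of genes) and the androgen response element (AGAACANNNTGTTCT, 0.00728% of genes) were in 0 of 7. Shown are the 3 promoters that hold CATTCC, since the levels of Cald1 and Mylk carry much of what follows and Acta2 is the member with both kinds of motif; capitals mark CATTCC (read as GGAATG on the minus strand) and, in Acta2, the 2 CArG-like boxes, and no matches overlap. Acta2 lies at chr1:241172454-241172753 on the minus strand, with its CArG-like boxes starting at -134 and -84 and its CATTCC at -196 from the start site. The first entry of Cald1 lies at chr4:64233006-64233305 on the plus strand with its motif at -195, and Mylk lies at chr11:79498525-79498824 on the minus strand with its motif at -36. A match describes letters and says nothing of binding.
Acta2: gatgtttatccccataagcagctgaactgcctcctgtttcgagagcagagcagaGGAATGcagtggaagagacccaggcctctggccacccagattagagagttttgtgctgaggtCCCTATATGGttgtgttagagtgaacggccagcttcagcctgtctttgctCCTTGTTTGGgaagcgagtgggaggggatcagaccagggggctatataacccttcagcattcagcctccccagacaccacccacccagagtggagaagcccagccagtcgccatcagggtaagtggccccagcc
Cald1: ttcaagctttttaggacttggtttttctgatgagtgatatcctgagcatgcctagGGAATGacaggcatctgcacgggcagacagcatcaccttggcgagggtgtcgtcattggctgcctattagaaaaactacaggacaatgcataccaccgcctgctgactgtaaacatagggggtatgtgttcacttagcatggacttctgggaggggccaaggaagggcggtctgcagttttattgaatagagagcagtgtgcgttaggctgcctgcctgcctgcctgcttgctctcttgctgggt
Mylk: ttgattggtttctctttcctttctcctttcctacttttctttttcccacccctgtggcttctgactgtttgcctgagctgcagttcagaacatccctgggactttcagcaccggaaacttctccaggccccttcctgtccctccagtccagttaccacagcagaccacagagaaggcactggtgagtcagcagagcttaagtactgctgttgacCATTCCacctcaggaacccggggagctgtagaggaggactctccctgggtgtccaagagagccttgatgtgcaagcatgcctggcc

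The first comparison asks what removal of the testes does to these genes in the male cord. Of the 9 members tested, 6 were higher in GDX than in intact males at an adjusted p under 0.1 (edgeR, adjusted over all 14931 genes tested): Cald1, Tagln, Myh11, Mylk, Rgs5 and Pdgfrb. Over all genes tested 13.4% passed in either direction (1995 genes, and 1202 without GDX male 5) and 6.78% passed as higher. The median log2 fold change of the 9 was 0.54, and over all genes tested it was 0.00. In 4 of them, Cald1, Tagln, Myh11 and Rgs5, every GDX male lay above every intact male, as did 3.53% of all genes tested. In whole tissue, more cells of a type and more RNA per cell cannot be told apart.

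**Figure D2:**
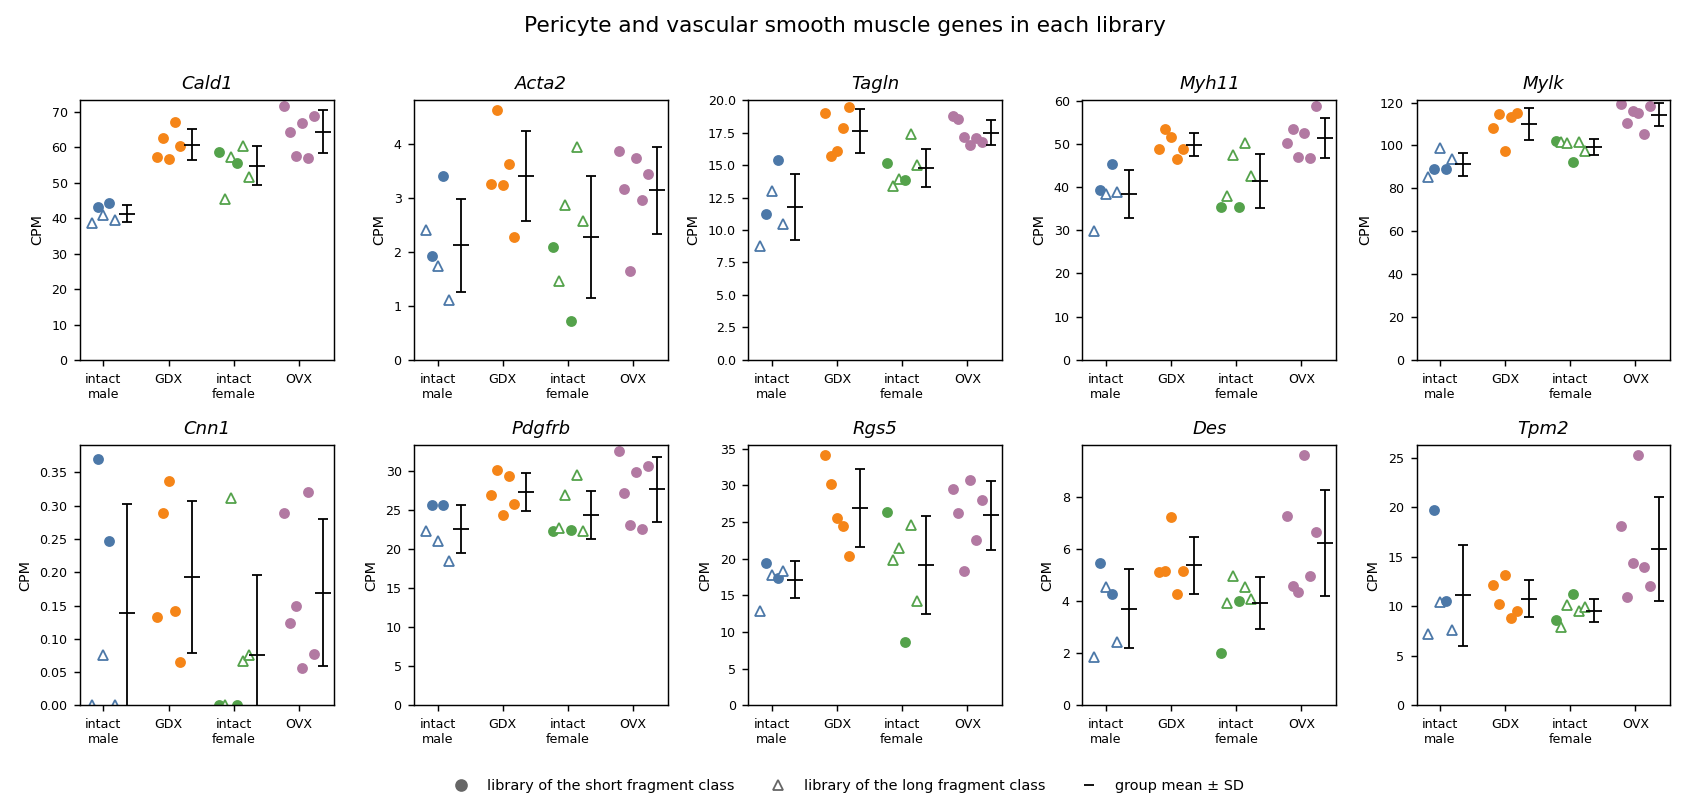
Level of each of the 10 genes in every library, in CPM, by group, with the mean and SD of each group (cut at 0 for Cnn1). For Cald1 the 5 GDX males lie between 56.7 and 67.2 CPM and the 5 intact males between 38.5 and 44.5 CPM.

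Of the contractile genes, Cald1 differed most clearly between the male groups. Its level was 38.5, 43.2, 41.0, 44.5 and 39.5 CPM in intact males 1, 2, 3, 5 and 6 and 57.4, 62.6, 56.7, 67.2 and 60.3 CPM in GDX males 1, 2, 4, 5 and 6. The groups did not overlap, and the gap between them was wider than the spread within either. Caldesmon was 1.47-fold higher after castration, a log2 fold change of 0.56 (SE 0.0592, edgeR adjusted p = 8.74e-04), from a mean of 41.3 CPM ± 2.48 (SD, n = 5) to 60.8 CPM ± 4.29 (SD, n = 5). Tagln, the actin-binding transgelin, stood at 8.79, 11.2, 12.99, 15.4 and 10.4 CPM in the intact males and at 19.0, 15.7, 16.1, 17.9 and 19.5 CPM in the GDX males. Intact male 5 was the highest of its group and came close to GDX male 2, the lowest of the other. This was a log2 fold change of 0.58 (SE 0.125, edgeR adjusted p = 0.0126). Myh11, the smooth muscle myosin heavy chain, was at 29.8, 39.4, 38.3, 45.3 and 38.8 CPM in the intact males and at 48.8, 53.4, 51.6, 46.5 and 48.7 CPM in the GDX males. Here too the groups stayed apart, with intact male 5 just under GDX male 5. The difference was 1.30-fold, a log2 fold change of 0.38 (SE 0.0851, edgeR adjusted p = 0.0156).

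Mylk, the kinase that starts contraction, was at 85.2, 88.8, 98.9, 89.3 and 93.6 CPM in the intact males and at 108.3, 114.9, 97.6, 113.5 and 115.3 CPM in the GDX males. Of the GDX males, number 4 lay within the range of the intact males and the others above it. The log2 fold change of Mylk was 0.27 (SE 0.0544, edgeR adjusted p = 0.00968), the smallest of the 6 called in size. Among the pericyte genes, Rgs5 was at 12.8, 19.4, 17.8, 17.3 and 18.4 CPM in the intact males and at 34.2, 30.2, 25.5, 24.5 and 20.3 CPM in the GDX males. The groups did not overlap, and the GDX males spread widely, with rat 6 just above the intact range. Rgs5 was 1.57-fold higher after castration (log2 fold change 0.66, SE 0.131, edgeR adjusted p = 0.00957), the largest change of the 6. The receptor gene Pdgfrb was at 22.2, 25.7, 21.0, 25.6 and 18.5 CPM in the intact males and at 26.9, 30.1, 24.4, 29.4 and 25.7 CPM in the GDX males. GDX male 4 lay within the intact range, and the mean rose from 22.6 CPM ± 3.08 (SD, n = 5) to 27.3 CPM ± 2.41 (SD, n = 5). Its log2 fold change of 0.27 (SE 0.0910, edgeR adjusted p = 0.0789) passed narrowly: without intact male 1, 3 or 6, or GDX male 2 or 5, the adjusted p was 0.146, 0.141, 0.161, 0.157 and 0.178, and with all 22 libraries in 1 fit it was 0.106.

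Members that did not pass in males were Acta2, Des and Tpm2, and Cnn1 was not tested. Acta2 was at 2.41, 1.92, 1.74, 3.40 and 1.11 CPM in the intact males and at 3.25, 4.62, 3.24, 3.62 and 2.28 CPM in the GDX males, and the groups overlapped. Its log2 fold change of 0.68 (SE 0.267, edgeR adjusted p = 0.135) was the largest of the 9 and rested on few reads; DESeq2 called it (adjusted p = 0.0952), as did edgeR without intact male 5 (0.93, adjusted p = 0.0526). Des was at 1.84, 5.48, 4.53, 4.26 and 2.43 CPM in the intact males and at 5.11, 5.14, 7.22, 4.25 and 5.15 CPM in the GDX males, with a log2 fold change of 0.54 (SE 0.251, edgeR adjusted p = 0.207). Intact male 2, high in muscle markers, was also the intact rat highest in Des. Tpm2 was at 12.2, 10.3, 13.2, 8.79 and 9.52 CPM in the GDX males, within the range of the intact males, with a log2 fold change of -0.04 (SE 0.225, edgeR adjusted p = 0.947). Without intact male 2 the log2 fold change of Tpm2 turned to 0.27 (adjusted p = 0.334) and that of Des was 0.72 (adjusted p = 0.116).

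Fragment class and markers of the meninges moved with castration. With class as a term in the fit, 2 members were called, Mylk (log2 fold change 0.30, edgeR adjusted p = 0.0616) and Cald1 (0.47, edgeR adjusted p = 0.0546), with 796 genes called in all. Within the short class, which left 2 intact males, the same 2 were called, Mylk at 0.30 (edgeR adjusted p = 0.0859) and Cald1 at 0.47 (edgeR adjusted p = 0.0857), with 440 genes in all. The other 4 kept a positive sign with class as a term: Rgs5 was at 0.56, Tagln at 0.40, Myh11 at 0.23 and Pdgfrb at 0.09. With the level of markers of meninges and fibroblasts in the fit, Rgs5 was called (log2 fold change 1.09, edgeR adjusted p = 0.0919), the other 5 were positive and not called, and 8 genes were called in all. That level differed between the same groups, so this fit cannot separate it from castration.

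**Figure D3:**
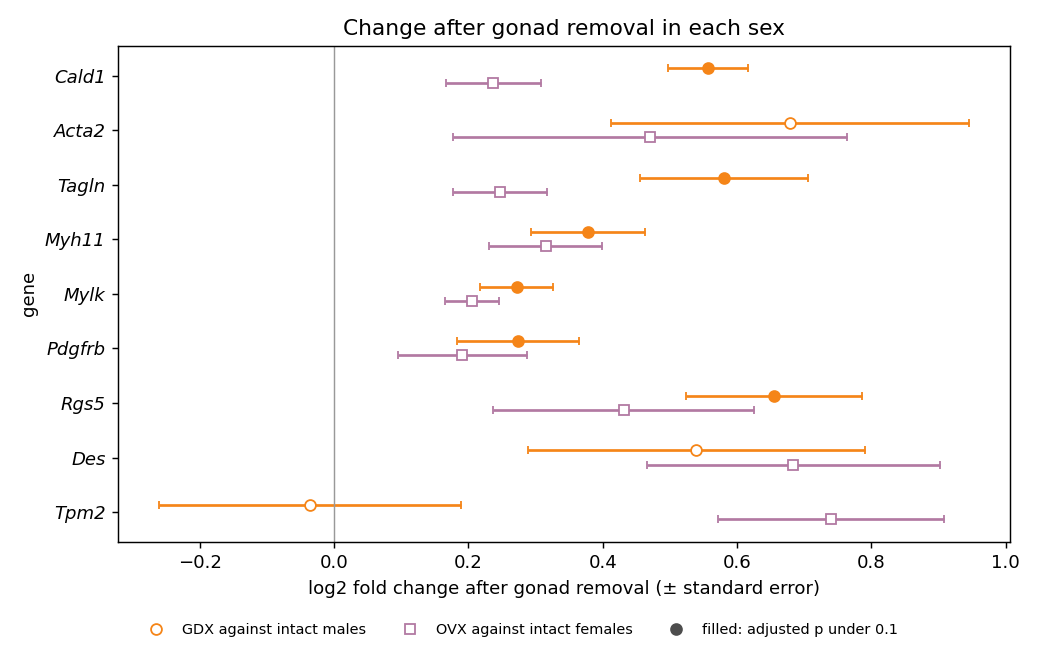
Log2 fold change of each tested member in GDX against intact males and in OVX against intact females, with its standard error. A value of 0 means no difference. After castration 8 of 9 members lie above 0 and after ovary removal 9 of 9 do.

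The second comparison asks the same of ovary removal. All 9 members tested had a positive log2 fold change in OVX against intact females, with a median of 0.31 beside 0.00 over all genes tested, but edgeR called 0 of 9, and 0.0335% of all genes tested. At an unadjusted p under 0.05 there were 7 of 9, beside 1516 of all 14910 genes tested, and DESeq2 called 4, Mylk, Tpm2, Myh11 and Cald1, beside 174 of all genes. In Mylk every OVX female lay above every intact female, as in 0.302% of all genes tested, and Cnn1 was not tested.

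Mylk ran from 92.4 to 101.9 CPM with a median of 101.5 CPM in the intact females and from 105.3 to 119.5 CPM with a median of 115.6 CPM in the OVX females. The groups did not overlap. OVX females had a log2 fold change of 0.21 for Mylk (SE 0.0401, edgeR adjusted p = 0.115; DESeq2 adjusted p = 0.00120), and edgeR called it without intact female 1 (adjusted p = 0.0540), OVX female 4 (adjusted p = 0.0994) or OVX female 5 (adjusted p = 0.0471). Cald1 ran from 45.4 to 60.5 CPM (median 56.5 CPM) in the intact females and from 57.1 to 71.8 CPM (median 65.6 CPM) in the OVX females, so that the groups overlapped. For Cald1 the log2 fold change was 0.24 (SE 0.0703, edgeR adjusted p = 0.257; DESeq2 adjusted p = 0.0992). Myh11 ran from 35.4 to 50.2 CPM (median 40.2 CPM) in the intact females and from 46.6 to 58.8 CPM (median 51.4 CPM) in the OVX females, with intact females 3 and 5 inside the upper range. It had a log2 fold change of 0.32 (SE 0.0845, edgeR adjusted p = 0.217, DESeq2 adjusted p = 0.0504). Within the short class, with 2 intact females, the log2 fold change of Myh11 was 0.54 (edgeR adjusted p = 0.0883). Myh11 was the 1 member called there, beside 7 of all 15652 genes tested.

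The actin-binding Tagln ran from 13.4 to 17.4 CPM (median 14.5 CPM) in the intact females and from 16.6 to 18.8 CPM (median 17.1 CPM) in the OVX females, and intact female 5 alone reached the OVX range. The log2 fold change of Tagln was 0.25 (SE 0.0703, edgeR adjusted p = 0.242). Rgs5 ran from 8.67 to 26.4 CPM (median 20.6 CPM) in the intact females and from 18.4 to 30.7 CPM (median 27.1 CPM) in the OVX females. Intact females 4 and 6 were low, at 8.67 and 14.2 CPM, and the groups overlapped widely. The log2 fold change of Rgs5 was 0.43 (SE 0.194, edgeR adjusted p = 0.468). That of Pdgfrb was 0.19 (SE 0.0962, edgeR adjusted p = 0.524), and that of Acta2 was 0.47 (SE 0.293, edgeR adjusted p = 0.626). With 1 library left out Rgs5 ran from 0.281, without intact female 4, to 0.547, without intact female 1. Acta2 ran from 0.289, without intact female 4, to 0.695, without intact female 5. Pdgfrb ran from 22.3 to 29.4 CPM (median 22.6 CPM) in the intact females and from 22.5 to 32.6 CPM (median 28.5 CPM) in the OVX females. Acta2 ran from 0.729 to 3.94 CPM (median 2.33 CPM) and from 1.64 to 3.87 CPM (median 3.29 CPM), and its groups overlapped over most of their range.

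Tpm2 ran from 7.95 to 11.3 CPM (median 9.73 CPM) in the intact females, and only intact female 4 reached the range of the OVX females given above. Tpm2 had a log2 fold change of 0.74 (SE 0.168, edgeR adjusted p = 0.15; DESeq2 adjusted p = 0.00738). Des ran from 2.02 to 4.98 CPM (median 4.05 CPM) in the intact females and from 4.33 to 9.59 CPM (median 5.80 CPM) in the OVX females, with a log2 fold change of 0.68 (SE 0.218, edgeR adjusted p = 0.283). Both were highest in OVX female 4 and next in OVX female 1, the libraries high in muscle markers. Without these 2 libraries the log2 fold change of Tpm2 was 0.43 (adjusted p = 0.249) and that of Des was 0.39 (adjusted p = 0.607). The count over all genes ranged from 0 without OVX female 1 or 6 to 113 without intact female 1.

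The third comparison sets intact males against intact females, and it shares its intact rats with the first and second. Cald1 was the 1 of 9 members called, lower in males, where 4.01% of all genes tested passed (599 genes, and 352 and 385 without intact male 1 or 5). The levels of Cald1 given above put every intact male below every intact female, as in 1.48% of all genes tested for that direction, with male 5 at 44.5 CPM just under female 2 at 45.4 CPM. Its level in males was 0.755 of that in females, with a log2 fold change of -0.41 (SE 0.0675, edgeR adjusted p = 0.00639). Of the others, Tagln had a log2 fold change of -0.32 (edgeR adjusted p = 0.198) and was called without intact male 5 (-0.45, adjusted p = 0.0619), and Mylk had -0.12 (edgeR adjusted p = 0.175) and was called without intact male 3 (-0.15, adjusted p = 0.0781). Acta2, Myh11, Pdgfrb, Rgs5 and Des had values from -0.17 in Rgs5 to -0.08 in Des, and Tpm2 had 0.21, which turned to -0.09 without intact male 2; Cnn1 was not tested. Within the short class, with 2 rats of each sex, the log2 fold change of Cald1 was -0.38 (edgeR adjusted p = 0.176) and 0 members were called by edgeR. With class as a term it was -0.42 (edgeR adjusted p = 0.00355), and with the markers of meninges and fibroblasts in the fit -0.37 (edgeR adjusted p = 0.439).

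Between the operated groups, GDX males and OVX females, all libraries are of the short class. Here edgeR called 0 of 9 members, beside 0.232% of all genes tested (35 genes, and 23 without OVX female 1); 1 member, Tpm2, had an unadjusted p under 0.05, as did 1413 of all 15084 genes, and DESeq2 called 0 members and 130 genes in all. The level of Tpm2 was 10.8 CPM ± 1.83 (SD, n = 5) in GDX males and 15.8 CPM ± 5.26 (SD, n = 6) in OVX females, a log2 fold change of -0.56 (SE 0.185, edgeR adjusted p = 0.346), and without OVX females 1 and 4 it was -0.25. Cald1, which set the sexes apart in intact rats, stood at 60.8 CPM ± 4.29 (SD, n = 5) in GDX males and at 64.4 CPM ± 6.02 (SD, n = 6) in OVX females, and the ranges of the operated groups overlapped. Its log2 fold change was -0.08 (SE 0.0640, edgeR adjusted p = 0.737). Of the others, Acta2 (0.11), Rgs5 (0.06) and Tagln (0.01) had positive and Des (-0.22), Mylk (-0.05), Myh11 (-0.04) and Pdgfrb (-0.02) negative log2 fold changes, Cnn1 was not tested, and the median of the 9 was -0.04.

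Whether the response to gonad removal differed between the sexes was tested over all 22 libraries. By edgeR 0 of 9 members were called, beside 0.116% of all genes tested (18 genes, and from 1 without GDX male 5 to 275 without GDX male 1), with 3 at an unadjusted p under 0.05 (1810 of all 15562 genes) and 1, Cald1, called by DESeq2 (adjusted p = 0.0908; 243 of all genes). For Cald1 the male response exceeded the female response by 0.33 on the log2 scale (SE 0.0987, edgeR adjusted p = 0.177). Tagln had a difference of 0.34 in the same direction (edgeR adjusted p = 0.345), and Tpm2 one of -0.77 (edgeR adjusted p = 0.305), which was -0.15 without the 3 libraries high in muscle markers. Rgs5 (0.23), Acta2 (0.21), Pdgfrb (0.09), Mylk (0.07), Myh11 (0.07) and Des (-0.14) had differences no larger than their standard errors or close to them, and Cnn1 was not tested. Markers of other cells moved in the same test: all 11 meningeal and fibroblast markers had a larger male response (median 1.30), with edgeR calling 0, 10 at an unadjusted p under 0.05 and 3 called by DESeq2, and all 5 Schwann cell markers did (median 1.00), with edgeR calling 0, 5 at an unadjusted p under 0.05 and 0 by DESeq2. Their part in the value of Cald1 was not tested. In the fit with the meningeal level, which itself rose in GDX males, the difference for Cald1 was 0.25 (edgeR adjusted p = 0.849). That 6 members passed in males and 0 in females by edgeR, with 7 and 4 by DESeq2 (2101 and 174 of all genes) and 8 and 7 at an unadjusted p under 0.05 (3549 and 1516 of all genes), does not show that the sexes differ: the test of that difference called 0 of 9 by edgeR and 1 by DESeq2, as given above.

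Long against short fragment class was compared among the intact rats, with sex in the fit. By edgeR 0 of 9 members were called, as were 0% of all genes tested, with 1 member, Tpm2, at an unadjusted p under 0.05. DESeq2 called 0 of 9, beside 59 of all 15723 genes tested. Tpm2 was lower in the long class (log2 fold change -0.45, SE 0.185, edgeR adjusted p = 0.588), and at -0.17 without intact male 2. All 7 skeletal muscle markers tested were lower in the long class as well (median -2.25), with edgeR calling 0, 7 at an unadjusted p under 0.05 (2 without intact male 2) and 0 by DESeq2; with no filter on low counts edgeR called 6 of 8 as lower, and 210 genes in all. Their part in the value of Tpm2 was not tested. Tagln (-0.12), Cald1 (-0.12), Des (-0.08) and Pdgfrb (-0.06) had negative and Acta2 (0.15), Mylk (0.05), Myh11 (0.05) and Rgs5 (0.01) positive log2 fold changes, Cnn1 was not tested, and the median of the 9 was -0.06. Over all genes 1218 had an unadjusted p under 0.05.

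Other genes of the contractile apparatus were followed as a list of 16 symbols, of which 13 were tested in males. In GDX males 6 of 13 rose and 0 fell, with a median log2 fold change of 0.26, and all 13 values were positive. Of all 14931 genes tested 6.78% passed as higher and 6.58% as lower, and 7546 had a positive value. Flna, the actin crosslinker filamin A, rose from 44.3 CPM ± 4.92 (SD, n = 5) to 68.2 CPM ± 11.6 (SD, n = 5), a log2 fold change of 0.62 (SE 0.103, edgeR adjusted p = 0.00554). Myl9, the regulatory light chain that the Mylk kinase phosphorylates, rose from 2.03 to 4.23 CPM on average (log2 fold change 1.07, SE 0.237, edgeR adjusted p = 0.0149). Cnn3, the acidic calponin, and Synpo2, an actin-binding protein of smooth muscle, rose by less (log2 fold changes 0.18 and 0.38, edgeR adjusted p = 0.0226 and 0.0413). With class as a term 1 of the 13, Flna, was called, and within the short class edgeR called 0, with 5 at an unadjusted p under 0.05. In OVX females edgeR called 0 of 13, with 3 at an unadjusted p under 0.05 and 0 by DESeq2. The smallest p values there were those of Smtn, the smooth muscle protein smoothelin (log2 fold change 0.30, edgeR adjusted p = 0.312), and Flna (0.20, edgeR adjusted p = 0.411).

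Regulators of these genes and of myosin made up a list with 7 genes tested. In males 1 of them rose and 1 fell, where 13.4% of all genes tested passed in either direction. In males, Rhoa, the small GTPase upstream of the kinases Rock1 and Rock2, rose (log2 fold change 0.22, SE 0.0436, edgeR adjusted p = 0.00951), and Mrtfa, a coactivator of serum response factor, fell (-0.28, SE 0.0798, edgeR adjusted p = 0.0448). Mrtfa was not called within the short class or without intact male 2. Rock1 and Rock2 had log2 fold changes of 0.10 and 0.09 and were not called (edgeR adjusted p = 0.171 and 0.315). In OVX females edgeR called 0 of 7, with 1 at an unadjusted p under 0.05 and 0 by DESeq2; Srf itself had a log2 fold change of 0.17 (edgeR adjusted p = 0.367) and Ppp1r12a, the targeting subunit of myosin phosphatase, one of -0.06 (edgeR adjusted p = 0.666).

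Other pericyte genes split. Of 14 tested in males 5 rose and 0 fell, with a median log2 fold change of 0.18 and values from -0.21 to 1.19. The 5 were Foxc1, Ednra, Vtn, Anpep and Tbx18. Other genes of the list, among them Kcnj8, Abcc9, Cspg4 and Notch3, were not called. Whether the RNA of the called genes came from pericytes was not tested. Over all genes tested 6.78% passed as higher and 6.58% as lower. Foxc1, a transcription factor of brain pericytes, rose from 5.23 to 11.9 CPM on average, 2.28-fold (log2 fold change 1.19, SE 0.168, edgeR adjusted p = 0.00303). Ednra, the endothelin receptor A, rose 2.06-fold (log2 fold change 1.04, SE 0.223, edgeR adjusted p = 0.0123), and Vtn, which encodes vitronectin, 1.51-fold (0.59, SE 0.147, edgeR adjusted p = 0.0235). Anpep, aminopeptidase N, passed narrowly (log2 fold change 0.69, edgeR adjusted p = 0.0944). Mcam, which held the most reads of this list, had a mean of 109.6 CPM in intact males and 94.6 CPM in GDX males (log2 fold change -0.21, edgeR adjusted p = 0.13); DESeq2 called 4 of this list higher and Mcam lower. Anpep and Foxc1 were the 2 of 14 called with class as a term. Within the short class 3 of 15 were called, Vtn, Anpep and Foxc1. Without intact male 2, and likewise with the replicate block, 3 were called, Vtn, Ednra and Foxc1, and not Anpep. In OVX females edgeR called 0 of 14, with 2 at an unadjusted p under 0.05 and 0 by DESeq2: Mcam had a log2 fold change of -0.17 and Vtn one of 0.27 (edgeR adjusted p = 0.471 for both).

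Signals between endothelium and mural cells made up a list of 9 genes. In males 2 of the 9 rose and 0 fell, where 6.78% of all genes tested passed as higher and 6.58% as lower. The 2 were Tek, the angiopoietin receptor of the endothelium (log2 fold change 0.49, SE 0.0906, edgeR adjusted p = 0.00752), and Angpt1, its ligand from mural cells (0.50, SE 0.165, edgeR adjusted p = 0.0779). With class as a term edgeR called 0 of the 9, with 2 at an unadjusted p under 0.05, and within the short class it called 0, with 2 at that p; with the replicate block and without intact male 2 Angpt1 was not called. Angpt2 and Edn1, which encodes endothelin, had log2 fold changes of 0.75 and 0.48 and were not called (edgeR adjusted p = 0.121 and 0.236); Angpt2 was called by DESeq2, with all 22 libraries in 1 fit and without intact male 2. In OVX females edgeR called 0 of 9, with 4 at an unadjusted p under 0.05, and DESeq2 called 1, Pdgfb, the endothelial ligand of the Pdgfrb receptor, at 4.93 CPM ± 0.884 (SD, n = 6) in intact and 7.04 CPM ± 0.556 (SD, n = 6) in OVX females (log2 fold change 0.52, SE 0.123, edgeR adjusted p = 0.160). Tek was at 0.49 there (edgeR adjusted p = 0.283). In intact males against intact females Flna of the contractile list and Foxc1 and Heyl of the pericyte list were lower in males. Within the short class edgeR called 0 genes of these 2 lists, with 1 contractile and 1 pericyte gene at an unadjusted p under 0.05; with the replicate block it called 0, with 4 and 4, and with the meningeal level in the fit 0, with 0 and 1. With that level in the fit of GDX against intact males edgeR called 0 genes of the 4 lists, with 1 contractile gene, 1 regulator, 4 pericyte genes and 2 signals at an unadjusted p under 0.05. In GDX males against OVX females edgeR called 0 genes of the 4 lists, with 1 contractile gene, 3 regulators, 1 pericyte gene and 1 signal at an unadjusted p under 0.05 and 0 by DESeq2. For the difference between responses edgeR called 0 of them, with 3, 4, 2 and 0 at an unadjusted p under 0.05, and DESeq2 called Rhoa and Foxc1. In long against short class edgeR called 0 of them, with 1, 1, 0 and 0 at an unadjusted p under 0.05, and DESeq2 called 0.

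Markers of the cells that mural cells touch moved in the same comparisons. The counts of markers that follow stand beside these shares of all genes tested. In GDX males 6.78% passed as higher. In OVX against intact females 0.0335% passed, and in intact males against intact females 4.01%. Of 11 endothelial markers tested, 9 rose and 0 fell in GDX males (median log2 fold change 0.49), and all 11 were positive in OVX females (median 0.44), where edgeR called 1, Kdr (0.77, adjusted p = 0.0966), and DESeq2 called 4. Kdr was not called with class as a term, within the short class, with the replicate block or without OVX females 1 and 4. It was called with the meningeal level in the fit. In GDX males edgeR called 3 of 11 with class as a term and 8 with the replicate block. With the meningeal level in the fit it called 1 of 11, Flt1, with 10 at an unadjusted p under 0.05. Their summed level, in which Abcb1a held the most reads, was 196.8, 269.9, 227.7, 248.2 and 230.8 CPM in the intact males and 350.6, 372.2, 329.3, 329.3 and 296.9 CPM in the GDX males. It ran from 194.5 to 345.2 CPM in the intact females and from 296.7 to 408.5 CPM in the OVX females, and no marker of the list was at 0 reads in all libraries. The male groups of the sum did not overlap, as in the sum of the 10 mural genes, which ran from 208.9 to 255.7 CPM in the intact males and from 295.7 to 327.2 CPM in the GDX males. The part of the endothelium in the results on the mural genes was not tested.

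Meningeal and fibroblast markers are made by cells around larger vessels and in the coverings of the cord. All 11 of 11 tested rose in GDX males (median log2 fold change 1.60), and 8 of 11 were lower in intact males than in intact females (median -1.24). Of these 11, edgeR called 5 as lower without intact male 2 and 0 within the short class, where 10 had an unadjusted p under 0.05. In GDX males 8 of 11 were called with class as a term. Their summed level, in which Col1a1 held the most reads, was 210.7, 144.2, 152.0, 100.2 and 76.6 CPM in the intact males and 191.7, 309.1, 450.2, 606.6 and 478.6 CPM in the GDX males, and it averaged 326.4 CPM ± 139.5 (SD, n = 6) in intact and 401.6 CPM ± 80.2 (SD, n = 6) in OVX females. In OVX females 10 of 11 were positive with a median log2 fold change of 0.26, beside 0.31 for the members, and edgeR called 0 of 11, with 0 at an unadjusted p under 0.05 and 0 by DESeq2. The part of the meninges in the results was not tested. The level of these markers differed between intact and GDX males, and between intact males and intact females. The fit with that level, given above, therefore cannot separate it from castration or sex.

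Red blood cell markers rose in GDX males in 4 of 4 tested, a count in which Hba-a2 stands for 2 entries of the table (median log2 fold change 1.72). Their summed level, in which Hba-a2 held the most reads, was 14.2 CPM in intact and 45.7 CPM in GDX males on average. In the fit with class as a term edgeR called 0 of these 4, with 4 at an unadjusted p under 0.05, and within the short class it called 0, with 4 at that p. It called 2 of 4 without intact male 2, and 0 with the replicate block, with 2 at an unadjusted p under 0.05. In OVX females all 5 tested were positive (median 0.90), and edgeR called 0, with 5 at an unadjusted p under 0.05 and 1 by DESeq2. Schwann cell markers rose in 2 of 5 in GDX males (median 1.07); DESeq2 called 0 of 5, and without intact male 2 edgeR called 0, with 2 at an unadjusted p under 0.05. Their summed level, in which Drp2 held the most reads, was 65.3 CPM in intact and 95.5 CPM in GDX males. In intact males against intact females, where Cald1 was lower in males, 3 of 5 Schwann cell markers were lower as well (median -1.50), and within the short class edgeR called 0 of them, with 5 at an unadjusted p under 0.05. The part of these cells in the results on the mural genes was not tested.

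**Figure D4:**
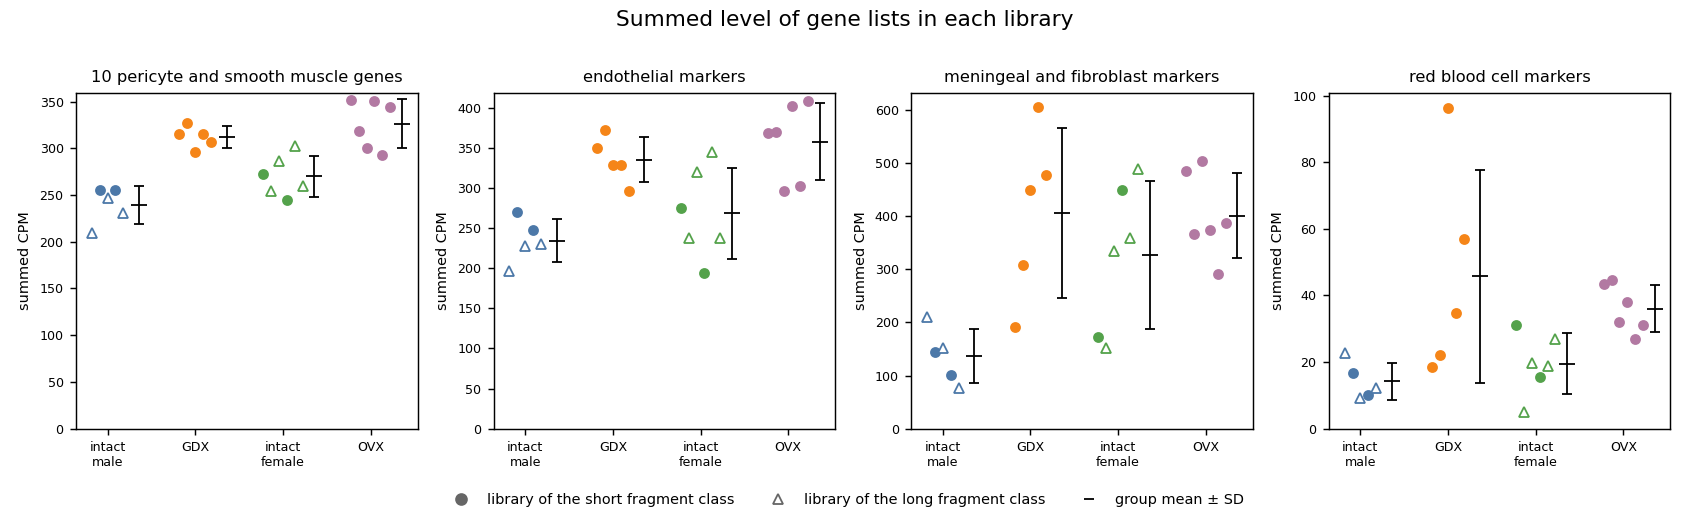
Summed CPM in each library of the 10 mural genes and of the lists of other cell types' markers, by group. The meningeal and fibroblast sum averages 136.7 CPM in intact males and 407.3 CPM in GDX males, and the endothelial sum 234.7 and 335.6 CPM.

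Within groups, the members varied together to different degrees. Over 22 libraries, with the mean of each group subtracted, the 36 pairs of the 9 tested members had a median Pearson r of 0.32, from -0.16 for Mylk with Tpm2 to 0.76 for Cald1 with Pdgfrb. Libraries share depth and composition, so these are descriptions. Des and Tpm2 stood at 0.75, and at 0.62 without the 3 libraries high in muscle markers. Acta2 and Pdgfrb, of a smooth muscle and a pericyte role, stood at 0.70. Against the mean of the members, Pdgfrb (0.80), Acta2 (0.76), Myh11 (0.76) and Des (0.73) had the highest r and Mylk (0.27) the lowest, with Rgs5 at 0.67, Cald1 at 0.61, Tpm2 at 0.56 and Tagln at 0.49.

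Genes outside the list whose levels were most like the mean of the members, among 15553 ranked over 22 libraries in the same way, were Eng (r = 0.85), Mmrn2 (0.85), Adgrf5 (0.83), Vwf (0.82), Ptprb (0.82), Csrp2 (0.82), Nos3 (0.82), F8 (0.80), Podxl (0.80) and Pltp (0.80). With a smaller prior count 10 of 10 of these were listed again, and without subtracting group means 6 of 10 were.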

How the data were processed

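Total RNA of ventral cervical cord was sequenced from 22 rats, 1 library each; the labels and the study's methods name different library kits (TruSeq and SMARTer Stranded Pico). Columns headed Inact were read as intact males. The deposited values are raw read counts per Ensembl gene: the authors trimmed reads with Trimmomatic, aligned them to Rnor_6.0 and counted them with featureCounts; the study's methods name Hisat2 and the labels name TopHat2 as aligner. Strand and multi-mapping settings are not stated. Each comparison was fitted on all genes with edgeR 4.0.16 in R 4.3.3 (filterByExpr, TMM factors, quasi-likelihood test, Benjamini-Hochberg adjustment, called at an adjusted p under 0.1). Tried beside it were RLE factors, DESeq2 1.42.0, no filter on low counts, all 22 libraries in 1 fit, fragment class or meningeal marker level as a term, the short class only, rat number as a replicate block, each library left out, and, added after seeing the data, leaving out 3 libraries high in skeletal muscle markers. All 10 genes are named in each comparison; of each list of other mural genes the up to 4 genes (males) or 2 (females) with the smallest p. The 10 genes and all lists were chosen with earlier results of these data known. Log2 CPM for correlations used a prior count of 2. Comparisons share groups and are not independent.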

Additional observations from a re-analysis of the deposited data

Results flagged for a closer look

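In 5 of 60 sets of values, each a gene or a summed marker list in 1 group, a single library lay far from the rest. For independent values with a normal spread the rule used flags about 1 in 20. These sets share libraries and some hold few reads, so that rate does not apply to them. Tpm2 in intact male 2 was 19.8 CPM, next to 10.5 CPM in the library nearest to it. The summed skeletal muscle markers were 146.1 CPM in intact male 2, next to 11.8 CPM, and 53.96 CPM in GDX male 4, next to 16.9 CPM. Des in intact female 1 was low, at 2.02 CPM, next to 3.94 CPM. Cnn1 in intact female 3 was 0.311 CPM, next to 0.0757 CPM, a difference of a few reads.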

How the results depend on the processing

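In the comparison of OVX with intact females every log2 fold change of the 9 tested members kept its sign under each alternative run. Members called in GDX against intact males were 6, and the count over all genes, given in brackets from here on, was 1995. Members called were 2 with fragment class as a term (796), 2 in the short class (440) and 1 with the meningeal level as a term (8). They were 5 with all 22 libraries in 1 fit (2395) and 5 to 7 with 1 library left out (1202 to 2446). With rat number as a replicate block they were 6 (1274). The labels do not say that rats of the same number in different groups share a pair or a batch. Over genes, the deviations of such rats from their group means had r from -0.114 to 0.063. The block gave 0, 1, 0, 0 and 0 members in the other comparisons (0, 255, 24, 0 and 1). In OVX females members called were 0 (5), and 4 by DESeq2 (174). They were 1 in the short class (7) and 0 to 1 with 1 library left out (0 to 113). In intact males against intact females they were 1 (599), and 0 in the short class (34). They were 0 with the meningeal level as a term (23) and 1 to 2 with 1 library left out (352 to 777). For the difference between responses DESeq2 called 1 (243). Signs turned as follows, all in log2 fold changes. Without the libraries high in muscle markers, an alternative chosen after seeing the data, Tpm2 was 0.27 in GDX against intact males and -0.093 in intact males against females, Pdgfrb 0.079 and Des 0.071 in GDX against OVX, Des 0.33 in the difference between responses, and Des 0.13 in long against short class. In the short class, intact males against females gave Rgs5 0.039, Pdgfrb 0.20, Des 0.71, Myh11 0.26 and Acta2 0.89, and the difference between responses gave Pdgfrb -0.22, Myh11 -0.30 and Acta2 -0.77. With the meningeal level as a term, intact males against females gave Des 0.33 and Acta2 0.021. With the replicate block, GDX against OVX gave Rgs5 -0.031 and Acta2 -0.029, and long against short class gave Mylk -0.007, Rgs5 -0.28, Myh11 -0.11 and Acta2 -0.069. With 1 library left out, GDX against intact males gave Tpm2 from -0.16 to 0.27. Intact males against females gave Tpm2 from -0.093 to 0.33, Des from -0.26 to 0.092 and Acta2 from -0.34 to 0.13. GDX against OVX gave Rgs5 from -0.045 to 0.14, Tagln from -0.025 to 0.052, Pdgfrb from -0.067 to 0.034 and Acta2 from -0.025 to 0.23. The difference between responses gave Des from -0.31 to 0.039, Myh11 from -0.010 to 0.14 and Acta2 from -0.012 to 0.46. Long against short class gave Rgs5 from -0.27 to 0.30, Tagln from -0.19 to 0.005, Pdgfrb from -0.13 to 0.001, Des from -0.40 to 0.13, Myh11 from -0.029 to 0.16 and Acta2 from -0.22 to 0.53. The causes were not tested. Counts of Cnn1 and Acta2, at most 5 and 80 reads per library, limit what can be seen of them.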

Other observations

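Among cells of the cord itself, 2 of 5 astrocyte markers, Gfap and Aqp4, rose in GDX males, and Gfap, which held the most reads, averaged 3059 CPM in intact and 3984 CPM in GDX males (log2 fold change 0.38, SE 0.0585, edgeR adjusted p = 0.00472). Of 6 motor neuron markers 1 fell in GDX males, Slc18a3, the vesicular acetylcholine transporter (log2 fold change -0.43, SE 0.13, edgeR adjusted p = 0.0542). In that comparison 6.58% of all genes tested passed as lower and 6.78% as higher. With fragment class as a term edgeR called 0 of 6, with 1 at an unadjusted p under 0.05, and with the replicate block 0, with 1; DESeq2, edgeR with no filter on low counts and edgeR without intact male 2 each called 2, Chat and Slc18a3. In intact rats all 6 were higher in the long than in the short class (median log2 difference 0.40), with edgeR calling 0, 6 at an unadjusted p under 0.05, 2 called by DESeq2 and 4 by edgeR with no filter on low counts. In OVX females all 6 log2 fold changes were negative (median -0.38), with edgeR calling 0, 5 at an unadjusted p under 0.05 and 1 called by DESeq2. With class as a term edgeR called 0 there, with 1 at that p, and within the short class 0, with 0. It called 1, Slc18a3, with no filter on low counts and 1, Prph, without OVX females 1 and 4. In GDX against intact males, with class as a term or within the short class, Gfap was called and Aqp4 was not. With the meningeal level in that fit edgeR called 0 of the 5 astrocyte markers, with 1 at an unadjusted p under 0.05. Of oligodendrocyte and microglia markers edgeR called 0 of 5 each in males, with 1 each at an unadjusted p under 0.05 and 1 each by DESeq2. The summed dorsal horn markers stayed under 2 CPM in every library.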
